A study of Homo sapiens with 6 samples.

Results

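The genes described here are 56 genes of DNA replication and nucleotide supply, followed in MM.1S, an established cell line from human multiple myeloma, during treatment with enzastaurin, a kinase inhibitor aimed at protein kinase C beta. They were chosen by name. A gene was read through Affymetrix probe sets that the platform annotation pairs with its symbol alone, and through the one with the highest mean log2 intensity where there were several. This gave values for 55 of the 56, and all 55 passed the filter on low intensity (a geometric mean of at least 63.3 over the arrays), out of 6838 genes tested in the series. UHRF1, which reads hemimethylated DNA behind the fork, had no such probe set and was not analysed here. The groups were cells given enzastaurin, collected after 3, 6 or 12 h, and untreated cells of the same line at 3, 6 or 12 h. Each treatment and time had 1 array, 6 in all, and the concentration of enzastaurin is not given in the sources used here. All values come from 1 cell line.

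Replication is prepared in G1 phase, when the origin recognition complex, CDC6 and CDT1 load the MCM helicase onto origins, and it starts when kinases and the CDC45 and GINS proteins turn the loaded helicase on. Polymerases alpha, delta and epsilon then copy the strands. The PCNA clamp, which the RFC complex loads, holds delta and epsilon to DNA. Ribonucleotide reductase, thymidylate synthase and thymidine kinase supply the deoxynucleotides. Many of these genes are transcribed in late G1 and S phase under E2F transcription factors, and cells that cycle express them at a high level.

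The promoters of 3 members are shown because MCM7 and POLD1 were the members that passed a test below, and MCM6, a subunit of the same helicase ring as MCM7, hardly differed. The sequences are the 250 bases before the start site in RefSeq, build GRCh38.p14, written along the gene's strand. Capitals mark matches to 4 spelled-out words of the E2F consensus, TTTCCCGC, TTTCGCGC, TTTGCCGC and TTTGGCGC, on either strand, and some matches overlap.
MCM7 promoter, chr7:100101398-100101647, minus strand: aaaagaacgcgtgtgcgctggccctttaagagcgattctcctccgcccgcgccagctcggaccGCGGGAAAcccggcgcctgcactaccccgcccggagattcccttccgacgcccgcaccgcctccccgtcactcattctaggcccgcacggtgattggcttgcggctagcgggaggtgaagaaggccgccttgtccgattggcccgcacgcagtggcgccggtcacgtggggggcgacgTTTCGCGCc
POLD1 promoter, chr19:50384073-50384322, plus strand: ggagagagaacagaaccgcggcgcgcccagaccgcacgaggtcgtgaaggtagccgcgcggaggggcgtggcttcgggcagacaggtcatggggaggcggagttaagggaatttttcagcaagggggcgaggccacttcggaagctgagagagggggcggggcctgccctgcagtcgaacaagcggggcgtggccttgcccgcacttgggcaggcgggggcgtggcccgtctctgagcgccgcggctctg
MCM6 promoter, chr2:135876444-135876693, minus strand: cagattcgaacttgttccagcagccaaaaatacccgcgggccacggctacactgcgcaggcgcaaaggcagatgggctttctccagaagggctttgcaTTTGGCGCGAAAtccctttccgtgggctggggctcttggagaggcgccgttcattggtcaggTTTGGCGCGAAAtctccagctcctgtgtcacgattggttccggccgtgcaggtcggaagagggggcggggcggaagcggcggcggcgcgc

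MCM7 had 2 such words, which began 187 and 9 bases before the start site. MCM6 had 4 in 2 overlapping pairs, and POLD1 had none in this window. The table held a 300-base window, from 250 bases before to 50 after the start site, for 50 of the 56 members. An E2F word was found in 21 of these 50 windows (42 percent), in 6 percent of 5702 windows of tested genes and in 3.33 percent of all 27305 windows. The licensing genes had it most often, in 7 of 11 windows. The shorter CCAAT box, on either strand, was found in 54 percent of member windows and 38.5 percent of windows of tested genes. The CHR words TTTGAA and TTTAAA, on either strand, were found in 10 percent of member windows, 15.6 percent of windows of tested genes and 24.3 percent of all windows. A match is a description of the letters and not of binding.

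MCM7 also encloses the miR-106b, miR-93 and miR-25 hairpins in the same orientation, so that these microRNAs share its primary transcript. Their main mature strands are shown with the seed, bases 2 to 8, in capitals. They were not measured here.
hsa-miR-106b-5p, chr7:100094043-100094063, minus strand: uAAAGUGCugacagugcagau
hsa-miR-93-5p, chr7:100093815-100093837, minus strand: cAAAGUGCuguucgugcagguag
hsa-miR-25-3p, chr7:100093571-100093592, minus strand: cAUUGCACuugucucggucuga
The miR-106b and miR-93 strands share the seed AAAGUGC, and miR-25 has AUUGCAC.

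Values are MAS5 intensities, a linear measure of a probe set's brightness. Their median over all probe sets lay between 62.2 and 67.6 on all 6. The 18S ribosomal RNA control probe sets had mean log2 intensities of 9.99, 3.79 and 3.02 at 3, 6 and 12 h under enzastaurin, against 3.39, 11.98 and 9.29 in untreated cells. The arrays with the strong signal were thus the treated one at 3 h and the untreated ones at 6 and 12 h. The log2 ratio of 3' to 5' ACTB probe sets was 2.0, 0.57 and 0.86 under enzastaurin, against 1.89, 1.16 and 1.60 in untreated cells. All 8 plasma cell markers passed the filter, and their summed intensity ran from 16661 to 20016 with enzastaurin and from 17824 to 22731 in untreated cells. Single markers differed more than the sum: at 12 h TNFRSF17 had 528 with enzastaurin and 4474 in untreated cells, SDC1 1229 and 3278, IRF4 1221 and 3058, and JCHAIN 7091 and 3874. None of 9 T and NK cell markers passed (sums of 278 to 312 with enzastaurin and 270 to 298 in untreated cells), nor did any of 6 monocyte markers (102 to 145 and 101 to 149) or 3 B cell markers (117 to 159 and 121 to 151). Of 5 stromal markers COL1A1, COL1A2 and VIM passed (3125 to 5386 with enzastaurin and 1947 to 5523 in untreated cells). No marker was exactly 0, but the monocyte marker LYZ was 0 in practice (9.28e-09) on the treated array at 12 h. The part of the ribosomal RNA, 3' to 5' and marker values in the results was not tested.

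The first question was whether enzastaurin altered these transcripts. Across the 3 times, tested as the mean of 3 time-matched log2 ratios in limma, 0 of the 55 members passed at an adjusted p of 0.05, beside 0.0585 percent of all genes tested. At an unadjusted p under 0.05 there was 1 member, UNG, or 1.82 percent, beside 5.41 percent of all genes. The pairs of 6 h and 12 h were then fitted alone, a choice made with earlier results of these data known. Those results showed the 2 times to be more alike than either is like 3 h, so the p-values are not independent of the choice. Among the members, 25 of 55 (45.5 percent) had log2 ratios of opposite sign at 6 h and 12 h, beside 39.1 percent of all genes. In such members a mean over the 2 times can lie near 0 while the single ratios do not. With only these pairs in limma (n = 2 pairs), MCM7 and POLD1 were called lower. These are 2 of 55 members or 3.64 percent, beside 2.08 percent of all genes called lower, and 0 members were called higher, beside 1.54 percent. At an unadjusted p under 0.05, 6 members or 10.9 percent were lower, beside 9.49 percent of all genes. In either direction 10.9 percent of members reached it, beside 15.9 percent of all genes. The shares of members past the thresholds were thus near those of all genes or below them. This fit has 1 residual degree of freedom, so its errors rest largely on the spread of other genes. In bulk RNA, fewer cells in S phase and less of a transcript in each cell cannot be told apart.

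MCM7, a subunit of the replicative helicase, had intensities of 1592, 998 and 692 at 3, 6 and 12 h under enzastaurin, against 1358, 1857 and 1496 in untreated cells. The treated arrays at 6 and 12 h lay below all 3 untreated arrays, and the treated array at 3 h lay between them. The difference at 6 and 12 h was 2.01-fold (log2 ratio -1.0, SE 0.27, adjusted p = 0.0437). On the second MCM7 probe set the log2 ratios were 0.44, -0.28 and -0.91 at 3, 6 and 12 h. With the median over the probe sets of each gene the adjusted p of MCM7 was 0.115, and without the time point in the fit it was 0.0836. MCM7 was also higher on the 3 arrays with strong ribosomal RNA signal than on the other 3.

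POLD1, the catalytic subunit of polymerase delta, had intensities of 211, 98.9 and 99.5 at 3, 6 and 12 h under enzastaurin, against 99.6, 268 and 245 in untreated cells. Its treated values at 6 and 12 h were level with the untreated value at 3 h, and the untreated arrays alone spanned 2.69-fold. The difference at 6 and 12 h was 2.58-fold (log2 ratio -1.37, SE 0.35, adjusted p = 0.0334), while at 3 h the log2 ratio was 1.09. POLD1 was high on the 3 arrays with strong ribosomal RNA signal and low on the other 3, whatever the treatment. The part of that signal in the POLD1 difference was not tested. Without an intensity trend in the variance prior neither gene passed, with adjusted p of 0.0513 for POLD1 and 0.145 for MCM7.

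**Figure D1:**
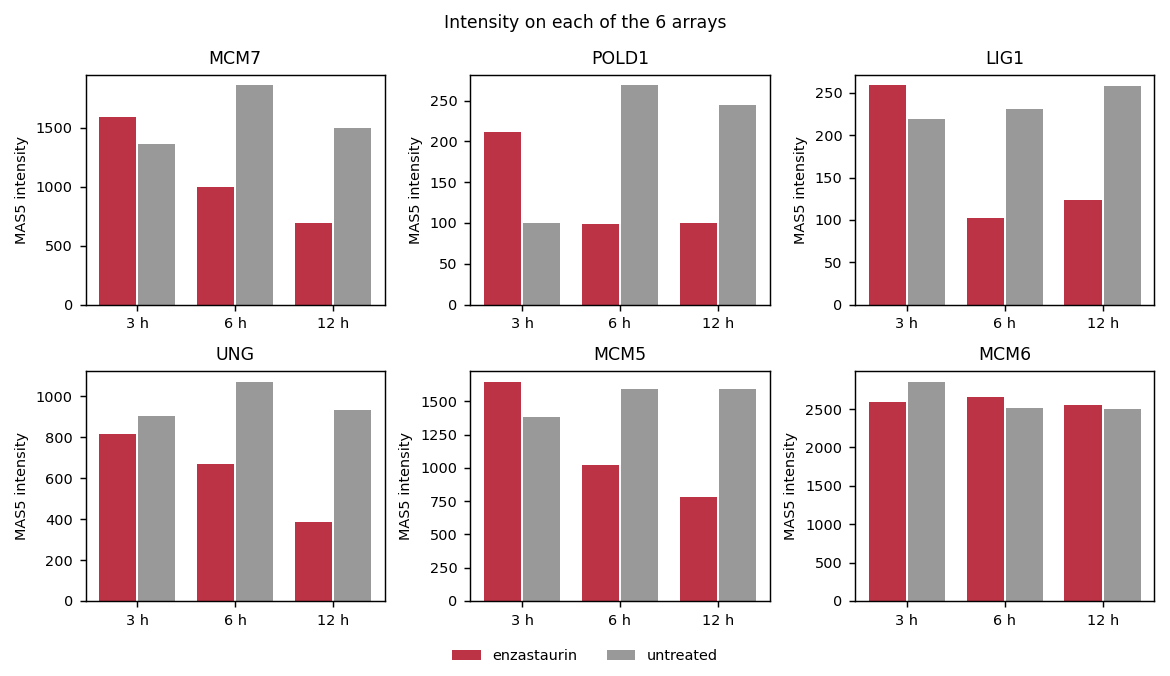
MAS5 intensity (linear axis from 0) of 6 members on each array, 1 bar per array, with enzastaurin in red and untreated cells in grey at 3, 6 and 12 h. MCM7, MCM5, LIG1 and UNG have lower red than grey bars at 6 and 12 h, POLD1 is low on the untreated array at 3 h as well, and MCM6 stays between 2502 and 2854 on all arrays.

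Most other licensing genes did not follow MCM7 at 6 h. MCM5, another helicase subunit, had intensities of 1645, 1018 and 779 under enzastaurin, against 1381, 1593 and 1594 in untreated cells (log2 ratio at 6 and 12 h -0.84, SE 0.27, adjusted p = 0.101). On its second probe set the log2 ratios were 1.15, -0.67 and -1.18 at 3, 6 and 12 h, so both MCM5 probe sets were lower at the later times. MCM6 had 2590, 2663 and 2558 under enzastaurin, against 2854, 2511 and 2502 in untreated cells, and the 95 percent interval of its log2 ratio at 6 and 12 h ran from -0.40 to 0.52. Over the same pair of times the log2 ratios of the other ring subunits were 0.08 for MCM3, -0.08 for MCM4 and -0.37 for MCM2. MCM4 had 4 probe sets past the filter, of which one had -1.28 and the others lay between -0.08 and 0.14. MCM3 and MCM6 were the licensing genes nearest to 0 at 12 h.

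The 12 h array was the low one for most origin recognition and loading genes. ORC1 had 97.3, 70.6 and 35.1 under enzastaurin, against 99.9, 59.3 and 94.6 in untreated cells. ORC2 had 120, 117 and 65.6 under enzastaurin, against 177, 110 and 188 in untreated cells. CDC6, which brings the helicase to the origin complex, had 401, 236 and 111 under enzastaurin, against 349, 216 and 228 in untreated cells. In all 3 genes the treated array at 12 h was the lowest of the 6, while at 6 h the log2 ratios were between 0.09 and 0.25. The weaker CDC6 probe set had -0.41 at 12 h. At 12 h the log2 ratios of ORC3, ORC5 and ORC6 were -0.46, -0.79 and -0.68, and CDT1, the other loading factor, had 0.94, -0.33 and -0.46 at 3, 6 and 12 h. Over the 13 licensing genes the median log2 ratios were -0.14, 0.09 and -0.68, and 12 of 13 were below 0 at 12 h. Of all genes 61.1 percent were below 0 at that time, with a median of -0.18.

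Of the genes that fire the loaded origin, all 8 had a log2 ratio above 0 at 6 h, as did 54.4 percent of all genes, with a median of 0.23, against medians of -0.54 at 3 h and -0.06 at 12 h. From 3 to 6 h their median log2 change was -0.82 in untreated cells and 0.08 under enzastaurin. Over all genes tested these medians were -0.07 and 0.04. In each of the 8 genes the untreated 3 h array had the highest of the untreated values. CDC7, the kinase that activates the helicase, had 296, 399 and 257 under enzastaurin, against 418, 141 and 271 in untreated cells. Its log2 ratio of 1.5 at 6 h went with the lowest of the 3 untreated values (log2 ratio at 6 and 12 h 0.71, SE 0.38, adjusted p = 0.384). DBF4, the activating subunit of that kinase, had -1.0, 0.21 and 0.42 at 3, 6 and 12 h. MCM10, which helps to activate the helicase, had 170, 160 and 106 under enzastaurin, against 290, 151 and 214 in untreated cells (-0.46, SE 0.37, adjusted p = 0.596). GINS3, a subunit of the GINS complex, had 225, 205 and 188 under enzastaurin, against 335, 184 and 193 in untreated cells (0.06, SE 0.34). Its second probe set had log2 ratios of 0.64 at 6 h and -1.06 at 12 h, and -0.21 over both. CDC45 and GINS2 had -0.69 and -0.68 at 12 h, and GINS1 and the checkpoint activator TOPBP1 had 0.18 and 0.26. None of the 8 passed a test.

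Among the polymerase and primase genes, 9 of 10 had a log2 ratio below 0 at 12 h, beside 61.1 percent of all genes, and POLD1 was the 1 that passed a test. For POLD2, an accessory subunit of polymerase delta, the log2 ratios were 0.67, -0.72 and -0.11 at 3, 6 and 12 h, and for POLD3 -0.52, 0.63 and 0.20. PRIM2, the large primase subunit, had 104, 152 and 46.0 under enzastaurin, against 128, 164 and 139 in untreated cells, so that the treated 12 h array alone was low (log2 ratio at 12 h -1.59). Probe sets listed for PRIM2 together with its near copy PRIM2BP were not used. Its partner PRIM1 had -0.51 and -0.38 at 6 and 12 h. POLE, the catalytic subunit of polymerase epsilon, had -0.24 and -0.83, and its small subunit POLE3 had 0.07 and -0.65. POLE2 had 141, 108 and 117 under enzastaurin, against 170, 92.3 and 141 in untreated cells, and its log2 ratio over the later pair of times was -0.02 (SE 0.37). POLA1 and POLA2 of polymerase alpha were at -0.24 and -0.67 at 12 h. The median of the 10 genes was -0.08, -0.13 and -0.52 at 3, 6 and 12 h.

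PCNA, the sliding clamp, had 2793, 2794 and 2055 under enzastaurin, against 3340, 2140 and 2826 in untreated cells, and the 95 percent interval of its log2 ratio at 6 and 12 h ran from -0.55 to 0.48. RFC2, a loader subunit, had 291, 178 and 143 under enzastaurin, against 251, 245 and 235 in untreated cells (-0.59, SE 0.34, adjusted p = 0.432). RFC1, the large subunit, had 829, 520 and 517 under enzastaurin, against 690, 594 and 649 in untreated cells (-0.26, SE 0.31). At 12 h RFC3, RFC4 and RFC5 stood at log2 ratios of -0.29, 0.15 and -0.37. On the chosen probe sets no clamp or loader gene differed 2-fold at any time, and the 12 h median was -0.35. A dimmer RFC5 probe set had a log2 ratio of 1.19 at 6 h, where the chosen one had 0.00.

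LIG1, the ligase that seals Okazaki fragments, had the largest difference of the lagging strand genes over 6 and 12 h. It had 259, 102 and 123 under enzastaurin, against 219, 232 and 258 in untreated cells. Its treated values at 6 and 12 h lay below all untreated values, which spanned 1.18-fold, and the test was not passed (log2 ratio -1.12, SE 0.35, adjusted p = 0.0859). FEN1, which cuts the flap before ligation, had 1770, 1640 and 730 under enzastaurin, against 1652, 1423 and 1784 in untreated cells. Its other probe set did not show the low 12 h value, with a log2 ratio of 0.18 there against -1.29. RPA2, of the complex that coats single strands, had 0.63 at 6 h and -1.31 at 12 h, while RPA1 had 0.31 and 0.21. The second RPA1 probe set had 0.88 and -0.18. RPA3 had 1249, 1159 and 1167 under enzastaurin, against 1413, 828 and 1182 in untreated cells (0.23, SE 0.28). RNASEH2A, a subunit of the enzyme that removes RNA from DNA, had -0.53 and -0.19 at 6 and 12 h.

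Nucleotide supply genes were lower at 12 h in 6 of 6, beside 61.1 percent of all genes, and on the chosen probe sets UNG alone was at least 2-fold lower. UNG, the glycosylase that removes uracil from DNA, had 814, 672 and 388 under enzastaurin, against 903, 1071 and 933 in untreated cells. All 3 treated values lay below all 3 untreated values, and UNG did not pass (log2 ratio at 6 and 12 h -0.97, SE 0.30, adjusted p = 0.0899, and -0.70, SE 0.29, adjusted p = 0.878 over 3 times). TK1, thymidine kinase of the salvage route, had 530, 323 and 349 under enzastaurin, against 408, 524 and 492 in untreated cells (-0.60, SE 0.32, adjusted p = 0.383). RRM2, the regulated subunit of ribonucleotide reductase, had 4149, 5189 and 2208 under enzastaurin, against 5437, 4106 and 4121 in untreated cells, a log2 ratio of -0.90 at 12 h. Its second probe set, almost as bright, had 2092 under enzastaurin at 12 h, against 4967 in untreated cells (-1.25). RRM1, the large subunit, and TYMS, thymidylate synthase, had log2 ratios of -0.45 and -0.29 at 12 h. DUT, which clears dUTP, had 3466, 2811 and 2828 under enzastaurin, against 3873, 2449 and 3215 in untreated cells. Its 3 probe sets disagreed, with log2 ratios over the later pair of times of 0.01, -0.42 and -1.22 from the strongest to the weakest, and the weakest had -1.36 at 12 h.

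Chromatin and G1/S genes completed the list. SLBP, which binds histone mRNA, had 1598, 1618 and 869 under enzastaurin, against 1603, 1507 and 1630 in untreated cells, a log2 ratio of -0.91 at 12 h. CHAF1A, of the histone chaperone CAF-1, had 645, 720 and 415 under enzastaurin, against 710, 574 and 739 in untreated cells. Its log2 ratio was 0.33 at 6 h and -0.83 at 12 h. The other CHAF1A probe sets had -0.82 and -0.08 at 6 h, and -0.37 and -0.34 at 12 h. CHAF1B, another subunit, had 156, 95.8 and 105 under enzastaurin, against 105, 107 and 153 in untreated cells. E2F1 itself had 280, 257 and 207 under enzastaurin, against 234, 222 and 191 in untreated cells, a log2 ratio of 0.26, 0.21 and 0.12, whereas its second probe set had -0.09, -0.09 and -0.67. CCNE1, cyclin E1, had 553, 395 and 355 under enzastaurin, against 729, 343 and 572 in untreated cells. CCNE2 had 79.5, 123 and 118 under enzastaurin, against 203, 57.9 and 91.9 in untreated cells, where the untreated values alone spanned 3.50-fold. On the chosen probe sets E2F1 was the 1 member above its untreated control at all 3 times, beside 9.14 percent of all genes, and 7 members, PRIM2, UNG, POLA2, ORC3, RRM1, TYMS and POLA1, were below at all 3, which is 12.7 percent of members beside 14.2 percent of all genes.

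**Figure D2:**
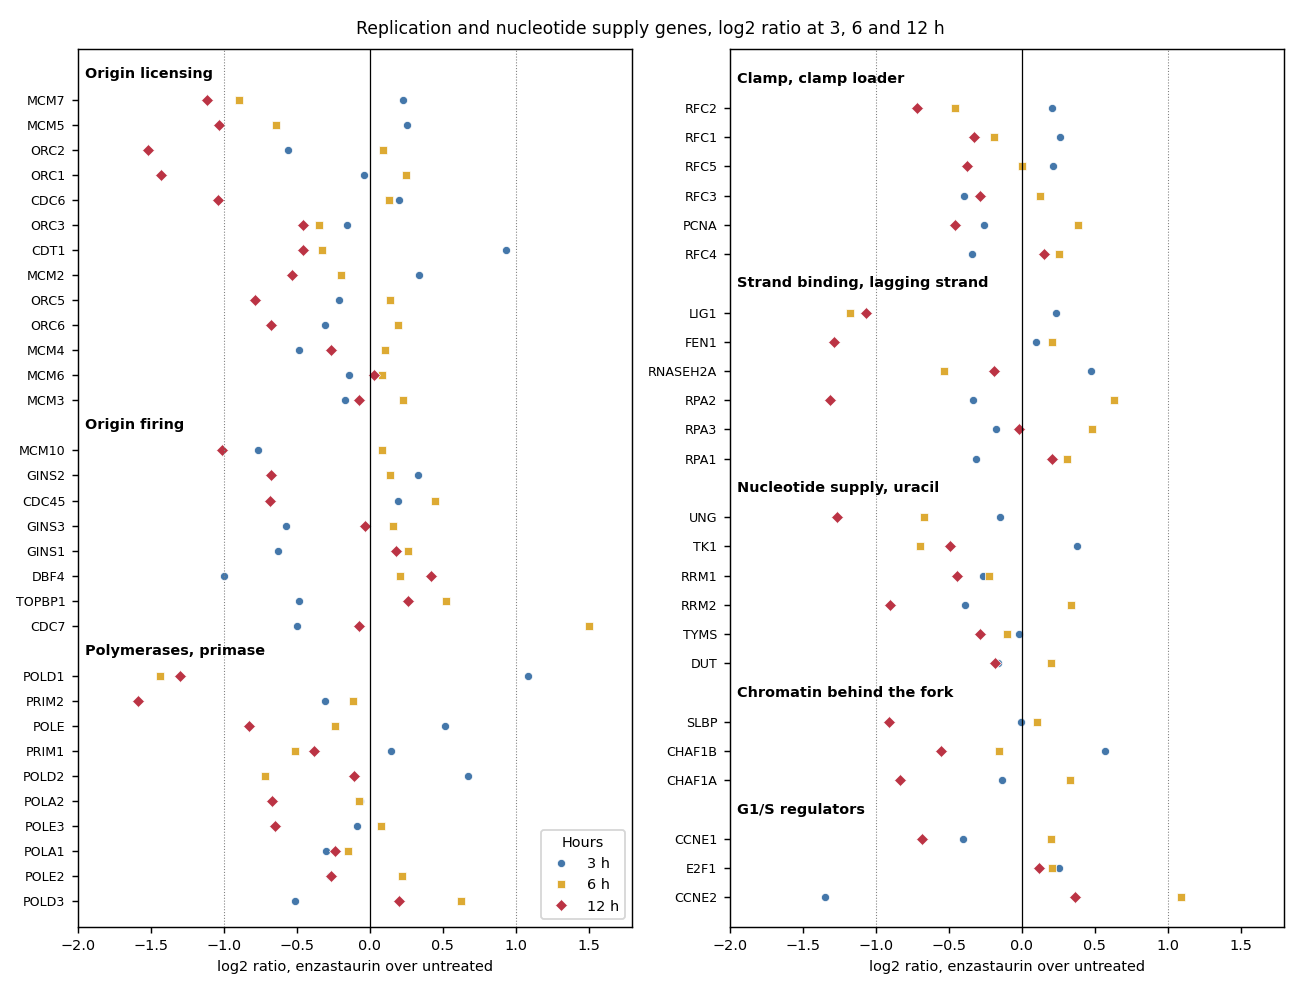
Log2 ratio of enzastaurin over untreated cells for the 55 members, 1 point for each time (blue circle 3 h, yellow square 6 h, red diamond 12 h), sorted within each role by the mean of 6 and 12 h. Dotted lines mark 2-fold, and 12 red diamonds lie to the left of -1 with none to the right of 1.

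The members were lower mainly at 12 h. At 3 h, 2 members (CCNE2 and DBF4) were at least 2-fold lower and 1 (POLD1) at least 2-fold higher, beside 2.65 and 1.89 percent of all genes. At 6 h, 2 (LIG1 and POLD1) were lower and 2 (CCNE2 and CDC7) higher, beside 3.22 and 5.6 percent. At 12 h, 12 of 55 or 21.8 percent were at least 2-fold lower, beside 10.4 percent of all genes, and 0 were higher, beside 3.88 percent. The 12 were PRIM2, ORC2, ORC1, RPA2, POLD1, FEN1, UNG, MCM7, LIG1, CDC6, MCM5 and MCM10. MCM10 was the last inside the 2-fold line at -1.01 and SLBP the first outside it at -0.91. Members below 0 by any amount were 35 at 3 h, 21 at 6 h and 46 at 12 h, or 63.6, 38.2 and 83.6 percent, beside 53.6, 45.6 and 61.1 percent of all genes.

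The 12 h pair had 1 array on each side, so there is no test at that time. The median log2 ratio of the members was -0.15, 0.10 and -0.46 at 3, 6 and 12 h, and that of all genes tested was -0.04, 0.06 and -0.18. Where every array was given the same median over the genes tested, a setting added after the data were seen, the 12 h medians were -0.26 for members and 0.02 for all genes. In that setting 12.7 percent of members and 6.64 percent of all genes were at least 2-fold lower, and 6.73 percent of all genes were higher. With quantile normalization 12.7 percent of members were at least 2-fold lower, beside 8.1 percent of all genes, and 5.59 percent of all genes were higher. Of the 12 members, all had a treated 12 h value below the 3 untreated values, though for POLD1 the gap to the untreated 3 h array was under 1 intensity unit. In 10 of the 12 the treated 12 h array was the lowest of all 6. Over all members it was lowest in 28 of 55 (50.9 percent), beside 30.3 percent of all genes. A second probe set was available for 4 of the 12, and it was lower at 12 h for CDC6, MCM5 and MCM7 and not for FEN1, reaching 2-fold in 1 of the 4 (MCM5). Of the 10 promoter windows found among the 12, 3 held an E2F word (CDC6, MCM7 and LIG1), and of 39 among the other members 17 did.

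**Figure D3:**
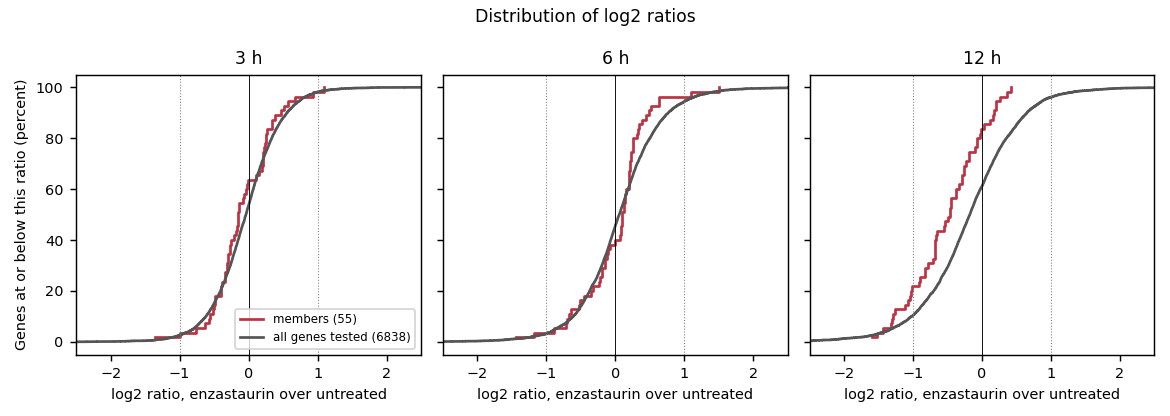
Share of genes (percent) at or below each log2 ratio of enzastaurin over untreated cells at 3, 6 and 12 h, in red for the 55 members and in grey for the 6838 genes tested. The curves lie close at 3 and 6 h, and at 12 h the red curve lies to the left, with medians of -0.46 and -0.18.

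Untreated cells differed between times as well. In untreated cells at 6 h over those at 3 h, 3 members (CCNE1, CCNE2 and CDC7) were at least 2-fold lower, beside 5.53 percent of all genes, and 2 (POLD1 and POLD2) were higher, beside 4.31 percent. At 12 h over 3 h in untreated cells, CCNE2 was at least 2-fold lower, beside 1.3 percent, and POLD1 higher, beside 2.91 percent. CCNE2, CDC7 and POLD1 are also among the members that differed 2-fold between treated and untreated cells at 3 or 6 h, in ratios that share these untreated arrays. In 2 members, POLA1 and UNG, all 3 treated values lay below all 3 untreated values, 3.64 percent beside 7.18 percent of all genes, and in 0 members they lay above, beside 3.47 percent.

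A slope on log2 hours asked whether the effect rose or fell in a straight line with log2 hours. It can miss an effect that differs at 6 h alone. It passed in 0 of 55 members in limma, beside 1.43 percent of all genes, and had an unadjusted p under 0.05 in 6 members, CCNE2, DBF4, FEN1, MCM5, MCM7 and POLD1, beside 11 percent of all genes. The smallest adjusted p was that of POLD1, at 0.0815 (slope -1.19 per doubling of hours, SE 0.38). The slope of POLD1 passed when arrays were scaled to equal medians over all probe sets, beside 167 of 6838 genes.

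The order of the arrays by ribosomal RNA signal was also set against the members. In 10 members the 3 arrays with strong signal all lay above the other 3, namely CDT1, CHAF1B, LIG1, MCM2, MCM5, MCM7, POLD1, PRIM1, RNASEH2A and TK1, which is 18.2 percent beside 11.5 percent of all genes. In 5 members, CCNE2, DBF4, POLD3, RFC4 and TOPBP1, they all lay below, 9.09 percent beside 10.4 percent. With the signal as a covariate over the 3 times, added after the data were seen, 0 members passed, beside 74 of 6838 genes. Without the covariate that fit also called 0 members, beside 4 genes, so the count does not show a part of the signal. MCM7 and POLD1 were called in the fit of 6 h and 12 h, to which the covariate was not added. At 6 and 12 h the signal cannot be told apart from the treatment.

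**Figure D4:**
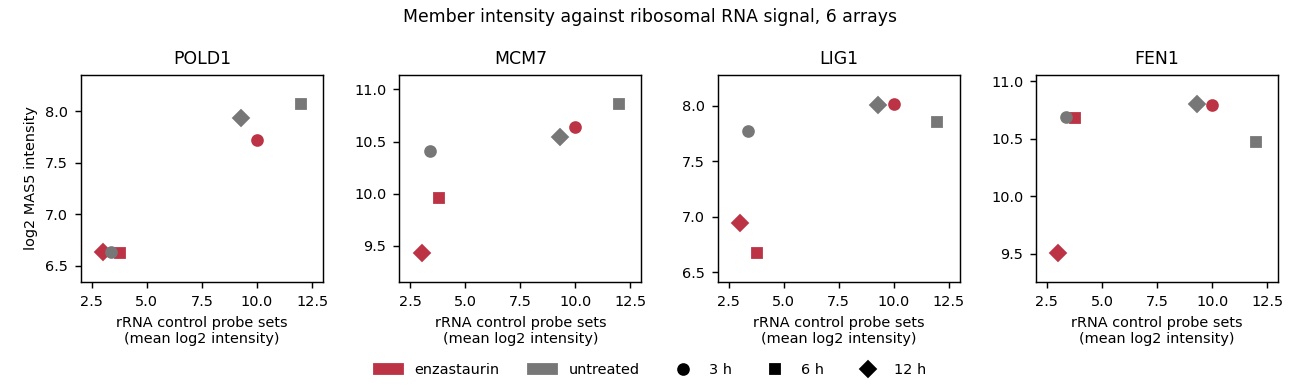
Log2 MAS5 intensity of POLD1, MCM7, LIG1 and FEN1 on the 6 arrays against the mean log2 intensity of the ribosomal RNA control probe sets, with enzastaurin in red, untreated cells in grey and the shape giving the time. POLD1 is high on the 3 arrays with a signal of 9.29 or more and low on the other 3, and the chosen FEN1 probe set is low on the treated 12 h array alone.

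Related genes outside the list were counted in the same way. Of 30 S-phase regulators and fork factors 21 were tested, and 0 passed any of the 3 tests in limma, with 1 at an unadjusted p under 0.05 in each, beside 5.41, 15.9 and 11 percent of all genes over 3 times, in the later-pair fit and for the slope. Their median log2 ratios were -0.37, -0.02 and -0.29 at 3, 6 and 12 h. ASF1A, a histone chaperone, had 421, 514 and 260 under enzastaurin, against 779, 586 and 663 in untreated cells (log2 ratio at 6 and 12 h -0.77, SE 0.34, adjusted p = 0.272), and the helicase RECQL4 had -0.50 (SE 0.36). Of 28 nucleotide synthesis enzymes 24 were tested and 0 passed, with 7 at an unadjusted p under 0.05 in the later-pair fit, beside those 15.9 percent of all genes, 2 for the slope and 0 over 3 times. Their medians were 0.02, -0.18 and -0.51, and 4 were at least 2-fold lower at 12 h, beside 10.4 percent of all genes. CTPS1, which makes CTP, had 451, 339 and 195 under enzastaurin, against 460, 499 and 490 in untreated cells (-0.94, SE 0.34, adjusted p = 0.147). GMPS, which makes GMP, had -0.85 (SE 0.32, adjusted p = 0.190). All 18 mitotic genes were tested, with medians of -0.70, -0.07 and -0.32, beside -0.04, 0.06 and -0.18 for all genes. The 3 h array pair was thus the low one there. The later-pair fit called 0 of the 18, beside 2.08 percent of all genes lower and 1.54 percent higher. An unadjusted p under 0.05 was reached by 2, beside 15.9 percent of all genes. The later-pair log2 ratio was -0.71 for the survivin gene BIRC5 (0.20 with the median over its probe sets). It was 0.72 for the ubiquitin-conjugating enzyme UBE2C (which passed with equal medians of the genes tested). The slope called 1 of the 18, CENPE, a kinetochore motor, upward (1.48, SE 0.38, adjusted p = 0.0148), beside 1.43 percent of all genes in either direction. With quantile normalization, or with equal medians of the genes tested, the slope called 0 genes of the whole table, CENPE included.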

How the data were processed

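RNA of 3 enzastaurin-treated and 3 untreated samples of MM.1S cells was labelled as biotinylated cRNA, per the labels' protocols. The deposited table holds linear intensity values of 22277 probe sets, and the submitters' processing notes name MAS5. Its version, scaling target and detection calls: not given in the sources used here. The number of arrays limits the precision. The labels do not say whether arrays came from separate cultures, so p-values measure the spread between arrays, which may be technical.

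The authors' scaling was kept. Intensities were floored at 1 and log2 transformed, and the upper 50 percent of probe sets by mean (63.3 or more) was kept, 1 per gene (highest mean). Symbols were updated by Entrez identifier in RefSeq, which matched 19052 of 19064 probe sets. Limma 3.58.1 in R 4.3.3 (eBayes with an intensity trend) was fitted to 6838 genes with the time point as a block, on 3 pairs, on the 6 h and 12 h pairs, and for a slope on log2 hours. Residual degrees of freedom were 2, 1 and 1, and the priors had 9.256, 16.86 and infinite ones. Errors thus rest largely on other genes, and for the slope a gene's own spread was not used. P-values were adjusted by Benjamini-Hochberg over all genes, with 0.05 as the threshold. The fits were run on simulated data with equal, independent noise for all genes and a fixed shift or slope. Such data are simpler than these arrays, so the run does not show how the fits perform here. Alternatives covered scaling, filter, probe sets, floor, prior, block and left-out pairs.

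Members, lists and the fit of the later pairs were chosen with earlier results of these data known. By the rule for named genes, intensities on every array are given for members past a test and, in each role, the 2 members with the largest and the 1 with the smallest mean ratio at 6 and 12 h, with the largest 2 of each related list named. Members named beyond these, such as those at least 2-fold lower at 12 h, were chosen after their values were seen.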

Additional observations from a re-analysis of the deposited data

Results flagged for a closer look

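POLD1 and CCNE2 had log2 ratios past 2-fold in opposite directions at 3 h and 6 h. POLD1 had 1.09 at 3 h, and -1.44 and -1.30 at 6 and 12 h. CCNE2 had -1.35 at 3 h, and 1.09 and 0.36 at 6 and 12 h. Each time has 1 array on each side. The slope on log2 hours, which tests only a straight trend, was not passed in limma by POLD1 (adjusted p = 0.0815) or CCNE2 (adjusted p = 0.355).

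The ribosomal RNA control probe sets, which are outside the genes tested, had a mean log2 intensity of 9.99 on the enzastaurin array at 3 h, against 3.39 on the untreated array of that time.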

How the results depend on the processing

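With the later pairs alone, POLD1 and MCM7 passed with equal medians over all probe sets, quantile normalization, no filter (with UNG) and a floor of 16. In that order, the calls over all genes were 215 of 6838, 307 of 6838, 564 of 11963 and 247 of 6840. With the median over probe sets POLD1 and LIG1 passed, beside 372 of 6838 genes. With equal medians of the genes tested, added after seeing the data, 5 of 55 members passed (LIG1, MCM5, MCM7, POLD1 and UNG). UBE2C passed there as well, and 548 of all 6838 genes did. Without the intensity trend 0 members passed, beside 133 genes. With no replicate block, meaning no time point, 1 did (POLD1), beside 135 genes. Over 3 times, leaving out 1 pair gave 0 to 2 members, the 2 being MCM7 and POLD1 without the 3 h pair, which is the later-pair fit. Leaving out 1 of the 2 later pairs leaves single ratios and no test. The slope called 1 member (POLD1) with all probe sets at equal medians, beside 167 of 6838 genes. The members at least 2-fold lower at 3 h were 1 with each of the 3 scalings, and those higher at 6 h were 1 with equal medians over all probe sets. At 12 h 7 members were 2-fold lower, and the median was -0.32, with quantile normalization, against 7 and -0.26 with equal medians of the genes tested. Of all genes 8.1 and 6.64 percent were 2-fold lower there. The 4 settings that can move a log2 ratio (3 scalings and the median over probe sets) gave 124 values for 31 named genes, of which 114 kept their direction. The other 10 were MCM6 (-0.0084), GINS3 (-0.0059) and DUT (-0.060) with equal medians over all probe sets, PCNA (0.071) with quantile normalization, GINS3 (-0.076), DUT (-0.42), E2F1 (-0.11) and BIRC5 (0.20) with the median over probe sets, and POLE2 (0.061) and PCNA (0.045) with equal medians of the genes tested. None of these 10 reversed values passed the test. The causes were not tested.

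Over all genes, the later-pair fit called 247, against 548 with equal medians of the genes tested, 564 without a filter, 372 with the median over probe sets, 133 without the trend and 135 without the time point. The share of lower calls was 57.5 percent, and 48.2 with equal medians of the genes tested. The 3-time fit called 4, against 0 to 247 without 1 pair, 74 with the ribosomal RNA covariate, 2 without the time point, 1 with equal medians over all probe sets, quantile normalization or no filter, and 0 without the trend. The slope called 98, against 167 with equal medians over all probe sets, 151 without a filter, and 0 with quantile normalization or equal medians of the genes tested. The share of lower genes among those 2-fold apart at 12 h was 72.9 percent, and 59.2 and 49.7 with these last 2 scalings. At 6 h it was 36.5 percent, and 50.5 for all probe sets at equal medians and 47.2 with quantile normalization. At 3 h it was 58.4 percent, and 48.0 and 46.9 with these 2.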
